A study of Mus musculus with 6 samples.

Results

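The 7 subunits of respiratory complex I that are encoded in the mitochondrial genome, mt-Nd1, mt-Nd2, mt-Nd3, mt-Nd4, mt-Nd4l, mt-Nd5 and mt-Nd6, were followed through all 6 libraries of a study of mouse bladder tumor organoids. They were chosen by name from the 51912 rows of the deposited table, and all 7 passed the filter of a mean of at least 1 TPM. The choice was made with the difference of mt-Nd3 between the treatments in view, so the differences of the members are given as a description and without a test. The organoids, small 3-dimensional cultures of tumor cells, came from C57BL/6 mice. The group called SRT1720 was treated with that compound, which is described as activating SIRT1, a protein deacetylase, and the group called Vehicle was given the carrier, with 3 libraries each. Neither dose nor duration is given in the labels, nor whether replicates are separate animals or cultures. What kind of replication the spread behind the p-values measures is therefore not known. Values of 3 libraries are given in the order of their replicate numbers, 1, 2 and 3.

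Complex I takes electrons from NADH, passes them to ubiquinone and pumps protons across the inner mitochondrial membrane. The mt-Nd genes encode core subunits of its membrane arm, through which the protons move, while the subunits that bind NADH and carry the iron-sulfur clusters are encoded in the nucleus. Mitochondrial DNA is transcribed into long RNAs from both strands, which are then cut into single messages, mostly at the tRNAs that lie between them. Message levels therefore depend on transcription and on the stability of each message after cutting.

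All 7 members had higher mean levels with SRT1720 than with vehicle. The ratio of the group means was largest for mt-Nd3, at 588 ± 125 against 207 ± 33.5 TPM (mean ± SD, n = 3 each), followed by mt-Nd2, at 797 ± 219 against 384 ± 124 TPM. Across all 9287 genes tested with limma, 0 passed at a Benjamini-Hochberg adjusted p of 0.05 (0% called), so no member is called as changed. Without adjustment, limma gave 1153 genes a p under 0.05. The same test with voom on recovered reads called 0 genes, with 1121 at an unadjusted p under 0.05.

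Reads recovered from the deposited values summed to 18285304 to 22883867 per library, and the members took 0.557% to 1.33% of them. That sum holds genes and their near-identical copies alike, and recovered lengths can understate it, so the percentages are approximate. Epithelial markers were present, with 10 of 13 at a mean of 1 TPM or more and summed levels of 588 to 2172 TPM with SRT1720 and 400 to 1385 TPM with vehicle. Fibroblast (0 of 8), endothelial (0 of 5), smooth muscle (0 of 5) and leukocyte markers (2 of 8) reached that level less often or not at all. Summed leukocyte markers were 1.04 to 11.5 TPM with SRT1720 and 1.94 to 16.1 TPM with vehicle. Libraries of one group differed strongly: Krt5, a basal keratin, was low in SRT1720 1 (16.4 TPM) and Vehicle 2 (9.61 TPM), while the remaining 4 libraries held 425 to 1120 TPM. The summed mitochondrial rRNA was high in SRT1720 3 (702 TPM) and Vehicle 3 (1562 TPM), while the remaining 4 held 135 to 198 TPM. In such bulk samples, fewer cells of a type and less RNA per cell cannot be told apart.

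On GRCm38 the members lie on the mitochondrial genome (chromosome M), and 6 of them are read from the plus strand. In gene order these are mt-Nd1 (ENSMUSG00000064341) from 2751 to 3707, mt-Nd2 (ENSMUSG00000064345) from 3914 to 4951 and mt-Nd3 (ENSMUSG00000064360) from 9459 to 9806. Then follow mt-Nd4l (ENSMUSG00000065947) from 9877 to 10173, mt-Nd4 (ENSMUSG00000064363) from 10167 to 11544 and mt-Nd5 (ENSMUSG00000064367) from 11742 to 13565. The exception is mt-Nd6 (ENSMUSG00000064368), from 13552 to 14070 on the minus strand. Each is a single exon without introns. The message of mt-Nd6 had 28.1% G and 5.97% C, whereas the other 6 had 8.0% to 11.6% G and at least 22.1% C. This base bias separates the strands of mitochondrial DNA. The mt-Nd4 gene ends with a single T after its last whole codon, and the stop codon of such messages is completed when the poly(A) tail is added.

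The mapping of reads matters for mt-Nd3, because chromosome 1 carries a nuclear copy of this stretch of mitochondrial DNA. The copy of mt-Nd3 there is the pseudogene Gm28438 (ENSMUSG00000101939), on chromosome 1 from 24612775 to 24613119 on the minus strand. Over the 345 bases compared, 344 were identical (99.7%), and the single mismatch was T3C, counted from 1 at the first base of mt-Nd3, where T is the base of mt-Nd3 and C that of the copy. The first 48 bases of both are shown because they hold that mismatch, which is in capitals. The longest run without a mismatch was 342 bases. The mitochondrial stretch is chrM:9459-9506 (plus strand) and the nuclear one chr1:24613072-24613119 (minus strand), both on GRCm38 from GENCODE M21 transcripts.
mt-Nd3: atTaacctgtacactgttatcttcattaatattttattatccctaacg
Gm28438: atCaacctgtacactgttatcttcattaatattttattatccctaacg
A read that lies within the compared bases and past the mismatch matches both loci equally well.

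The nuclear copy gave the same picture as mt-Nd3, and the pair cannot be taken as independent measurements. Recovered reads of mt-Nd3 were 8916, 11117 and 13844 with SRT1720 and 4966, 2882 and 3617 with vehicle. Those of Gm28438 were 8941, 11237 and 14044 with SRT1720 and 5034, 2896 and 3662 with vehicle. The copy exceeded the gene in 6 of 6 libraries, by 14 to 200 reads (0.28% to 1.44% of the mt-Nd3 reads). In 5 of 6 libraries this was less than the sampling SD of a difference between independent counts of that size, 76.0 to 167 reads. Counts that share reads would differ by less than independent ones, so nothing is read from that comparison. The log2 fold changes, on the scale of log2(TPM + 1) and with SRT1720 minus Vehicle, were 1.49 (SE 0.21) for each. How reads that match several places were counted is not given in the sources used here, so how many of these reads came from either locus was not tested.

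Other members in the copied stretch had near-identical copies as well. Gm10222 matched mt-Nd4l without a mismatch over 294 bases, and its reads exceeded those of mt-Nd4l by 14 to 53 in 6 of 6 libraries. Gm28439 matched the first 876 bases of mt-Nd4 without a mismatch, which is 63.6% of that gene, and held 0.502 to 0.521 times its reads. Outside the members, Gm28661 matched mt-Co2 without a mismatch over 681 bases and exceeded it by 115 to 425 reads of 84214 to 123741. Other copies without a mismatch could be further from their genes. Gm28437 had 56051 reads in Vehicle 2 and 78973 in SRT1720 3, against 55766 and 75871 for mt-Co3. Gm10925 had 68086 to 125378 reads, against 36866 to 65222 for mt-Atp6. The genes mt-Nd1, mt-Nd2, mt-Nd5 and mt-Nd6 lie outside the stretch copied by the listed pseudogenes of chromosome 1. Of these, mt-Nd2 differed by a log2 of 1.06 (SE 0.29) and mt-Nd1 by 0.85 (SE 0.37), against 1.49 for mt-Nd3. The differences were smaller for mt-Nd6, at 0.52 (SE 0.26), and mt-Nd5, at 0.43 (SE 0.25). Only mt-Nd2 among them did not overlap between groups.

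**Figure D1:**
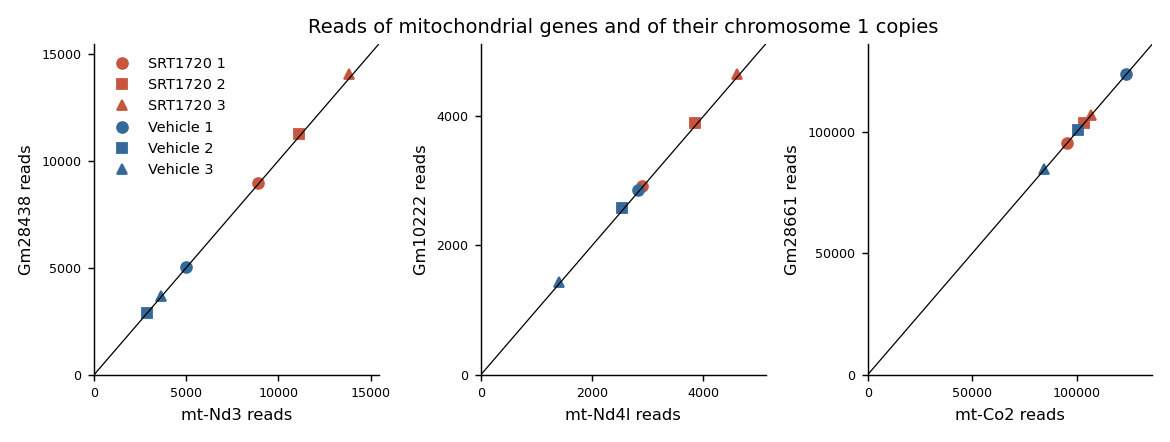
Recovered reads of 3 mitochondrial genes (x axes) against those of their copies on chromosome 1 (y axes), 1 point per library, with the line of equality. All 18 points lie slightly above the line, by 14 to 425 reads, with mt-Nd3 between 2882 and 13844 reads. The copies of mt-Nd4, mt-Co1, mt-Co3 and mt-Atp6 are not shown.

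Overlaps between members also bear on their values. The last bases of mt-Nd4l are the first bases of mt-Nd4, which share a message, and mt-Nd5 and mt-Nd6 overlap tail to tail on opposite strands. Both junctions are shown on the plus strand with the shared bases in capitals, 7 in the first (chrM:10137-10203) and 14 in the second (chrM:13522-13595).
mt-Nd4l to mt-Nd4: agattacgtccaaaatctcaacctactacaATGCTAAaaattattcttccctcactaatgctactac
mt-Nd5 to mt-Nd6: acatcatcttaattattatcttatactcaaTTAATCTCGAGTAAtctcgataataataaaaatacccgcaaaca
In the first junction the shared bases hold the start codon of mt-Nd4 and the stop codon of mt-Nd4l, and in the second they hold the stop codons of mt-Nd5 and, on the other strand, mt-Nd6. Whether the counting used strand is not given, so reads from mt-Nd6 and from antisense RNA of the plus-strand transcript cannot be told apart.

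Among the subunits encoded before the oxidase genes, mt-Nd1 forms part of the link between the ubiquinone site and the membrane arm. Its level was 981, 1459 and 1712 TPM with SRT1720 and 604, 540 and 1287 TPM with vehicle. The groups overlapped, because Vehicle 3 lay above SRT1720 1. The log2 fold change was 0.61 without Vehicle 2 and 1.24 without Vehicle 3, so single libraries moved it. Vehicle 3, the highest Vehicle library in mt-Nd1, also held the highest level of mt-Rnr2, the large rRNA encoded just before mt-Nd1, at 725 TPM against 44.3 to 417 TPM elsewhere. The part of this in the mt-Nd1 value was not tested.

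The next gene, mt-Nd2, encodes an antiporter-like subunit in the middle of the membrane arm. It was at 565, 823 and 1001 TPM with SRT1720 and at 335, 293 and 526 TPM with vehicle. All 3 SRT1720 libraries lay above all 3 Vehicle libraries, though SRT1720 1 and Vehicle 3 were close. The ratio of mt-Nd1 to mt-Nd2 was 1.71 to 1.77 with SRT1720 and 1.80 to 2.45 with vehicle.

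The small subunit mt-Nd3 sits at the joint of the membrane and matrix arms, and carries a loop known to change conformation between the active and deactive states of the enzyme. Its level was 474, 567 and 722 TPM with SRT1720 and 242, 176 and 202 TPM with vehicle. The lowest SRT1720 library was well above the highest Vehicle library, and the ratio of the group means was 2.84. The log2 fold change was 1.32 to 1.64 over all 18 alternatives tried.

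Downstream of mt-Nd3, mt-Nd4l encodes a short subunit next to mt-Nd6 in the membrane arm. It was at 181, 230 and 281 TPM with SRT1720 and at 161, 181 and 92.1 TPM with vehicle. SRT1720 1 and Vehicle 2 had nearly the same level, and Vehicle 3 was the lowest. The log2 fold change of 0.70 (SE 0.30) shrank to 0.26 without SRT1720 3 and Vehicle 3, the libraries high in rRNA. It was 1.06 without SRT1720 1 and Vehicle 2, the libraries low in Krt5, and 0.41 without Vehicle 3 alone.

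Like mt-Nd2, mt-Nd4 encodes an antiporter-like subunit of the proton path. It was at 570, 759 and 755 TPM with SRT1720 and at 428, 522 and 333 TPM with vehicle. The groups did not overlap, with SRT1720 1 and Vehicle 2 nearest to each other. Its log2 fold change was 0.71 (SE 0.21), 0.48 without SRT1720 3 and Vehicle 3, and 1.0 without SRT1720 1 and Vehicle 2. The TPM of mt-Nd4 was 2.66 to 3.62 times that of mt-Nd4l, although both are on the same message. Overlapping reads and the treatment of ambiguous reads, which is not given, could bear on this ratio and were not tested.

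The last antiporter-like subunit, at the far end of the membrane arm, is mt-Nd5. Its level was 292, 393 and 539 TPM with SRT1720 and 251, 300 and 334 TPM with vehicle. Its log2 fold change was the smallest of the 7, at 0.43 (SE 0.25), with overlapping groups. It was 0.21 without SRT1720 3 and 0.65 without SRT1720 1. The minus-strand member mt-Nd6, a membrane subunit needed for assembly of the complex, was at 155, 178 and 269 TPM with SRT1720. With vehicle it was at 114, 130 and 169 TPM, and the groups overlapped. Its log2 fold change was 0.52 (SE 0.26) and 0.29 without SRT1720 3. The ratio of mt-Nd5 to mt-Nd6 was 1.88 to 2.30 in all libraries.

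**Figure D2:**
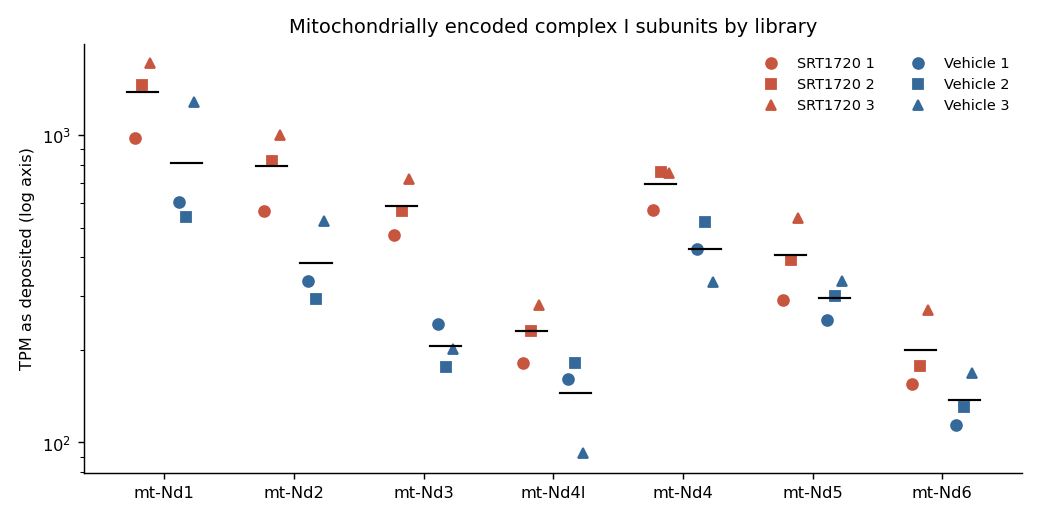
TPM of the 7 members (log axis) in each library, with 3 SRT1720 libraries in red, 3 Vehicle libraries in blue, symbols for the replicate number and bars for group means. The groups are apart in mt-Nd2, mt-Nd3 and mt-Nd4 and overlap in the other 4 genes.

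In all, 3 of 7 members did not overlap between groups, each higher with SRT1720, where 12.1% of all genes tested did so, 7.75% did not overlap in the other direction and 19.9% did not overlap in either. Since the members were chosen with this contrast in view, nothing is read from that count. The median log2 fold change of the 7 was 0.71, beside 0.04 over all genes tested.

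Compared per length, mt-Nd1 had the highest level of the 7 in 6 of 6 libraries. The lowest was mt-Nd6 in 5 of 6 libraries, while in Vehicle 3 it was mt-Nd4l. With SRT1720 the means were in the order mt-Nd1, mt-Nd2, mt-Nd4, mt-Nd3, mt-Nd5, mt-Nd4l and mt-Nd6, and of the neighbours in that order only mt-Nd5 and mt-Nd4l had ranges that did not overlap. With vehicle the order was mt-Nd1, mt-Nd4, mt-Nd2, mt-Nd5, mt-Nd3, mt-Nd4l and mt-Nd6, with a gap in the ranges only between mt-Nd1 and mt-Nd4 and between mt-Nd5 and mt-Nd3. The level of mt-Nd3 was above that of mt-Nd5 in 3 of 3 SRT1720 libraries and below it in 3 of 3 Vehicle libraries.

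The members did not vary as one block. Over the 6 libraries, Pearson's r of log2(TPM + 1) was 0.97 between mt-Nd5 and mt-Nd6, 0.96 between mt-Nd1 and mt-Nd2 and 0.95 between mt-Nd4 and mt-Nd4l, pairs that lie next to each other. Other neighbours had lower values, at 0.75 for mt-Nd3 and mt-Nd4l and 0.64 for mt-Nd4 and mt-Nd5, and the distant pair mt-Nd2 and mt-Nd6 had 0.91. The lowest value was 0.24, between mt-Nd1 and mt-Nd4l, and mt-Nd3 had values of 0.70 to 0.89 with the other 6. These are descriptions over 6 points that share library depth and the treatment difference.

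The other 6 mitochondrially encoded mRNAs did not share one direction. The message of mt-Cytb, the only mitochondrially encoded subunit of complex III, was higher with SRT1720. It was at 1340, 1562 and 1163 TPM with SRT1720 and at 755, 967 and 475 TPM with vehicle, without overlap. The catalytic oxidase subunit mt-Co1 was lower instead, at 2420, 2802 and 2898 TPM with SRT1720 and 4503, 4186 and 4609 TPM with vehicle, also without overlap. Their log2 fold changes were 0.94 (SE 0.27) and −0.71 (SE 0.10), and neither passed limma's adjusted test.

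The remaining oxidase and ATPase messages overlapped between groups. The oxidase subunit mt-Co2 was at 2703 ± 124 against 2861 ± 408 TPM, mt-Co3 at 1506 ± 218 against 1386 ± 138 TPM and mt-Atp6 at 1509 ± 203 against 1315 ± 233 TPM (mean ± SD, n = 3 each). The log2 fold changes of mt-Co2 and mt-Co3, −0.07 and 0.12, flipped sign with quantile normalization, while those of the 7 members stayed above 0 there. The overlapping gene mt-Atp8 had 0 to 57 reads per library, so its value is uncertain. The rRNAs spread too widely within groups for a comparison, with SE of 0.95 for mt-Rnr1 and 1.15 for mt-Rnr2 on the log2 scale.

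Differences therefore did not run in one direction along the plus strand. Between the neighbouring messages mt-Nd2 and mt-Co1, the ratio of TPM was 0.234, 0.294 and 0.345 with SRT1720 and 0.0744, 0.0699 and 0.114 with vehicle. Between mt-Nd3 and mt-Co3, also neighbours, it was 0.349, 0.404 and 0.411 with SRT1720 and 0.196, 0.116 and 0.143 with vehicle. Both ratios were higher in all 3 SRT1720 libraries than in any Vehicle library. A ratio within a library does not depend on how that library was scaled. Both ratios hold a member chosen with this contrast in view, so they are a description without a test.

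**Figure D3:**
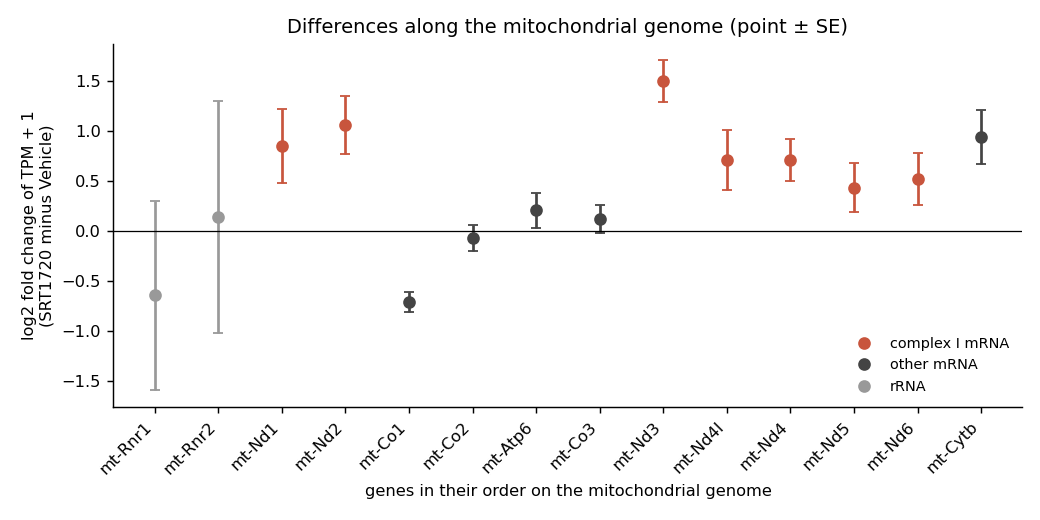
Log2 fold change of TPM + 1 (y axis, SRT1720 minus Vehicle, point ± SE) for mitochondrial genes in genome order, leaving out mt-Atp8 and the tRNAs. The complex I messages in red run from 0.43 to 1.49, while mt-Co1 is at −0.71.

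As a share of the summed TPM of the 13 mitochondrially encoded mRNAs, the 7 members were higher with SRT1720. They made up 25.8%, 30.3% and 34.7% with SRT1720 and 16.2%, 16.1% and 22.8% with vehicle, without overlap. The total of the 13 was 14082 ± 1447 against 13136 ± 233 TPM, with overlapping groups. The share of mt-Nd3 was 3.8% to 4.74% with SRT1720 and 1.32% to 1.84% with vehicle. On this scale mt-Nd2, mt-Nd4 and mt-Nd4l also did not overlap, and mt-Nd1, mt-Nd5 and mt-Nd6 did. In TPM, mt-Nd4l did overlap. Outside the members, the share of mt-Cytb was 10.8%, 10.7% and 7.64% with SRT1720 and 5.72%, 7.25% and 3.69% with vehicle, also higher without overlap. The share of mt-Co1 was 19.0% to 19.4% with SRT1720 and 31.4% to 35.8% with vehicle. Shares add up to a fixed total, so a lower share of mt-Co1 goes with higher shares elsewhere.

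**Figure D4:**
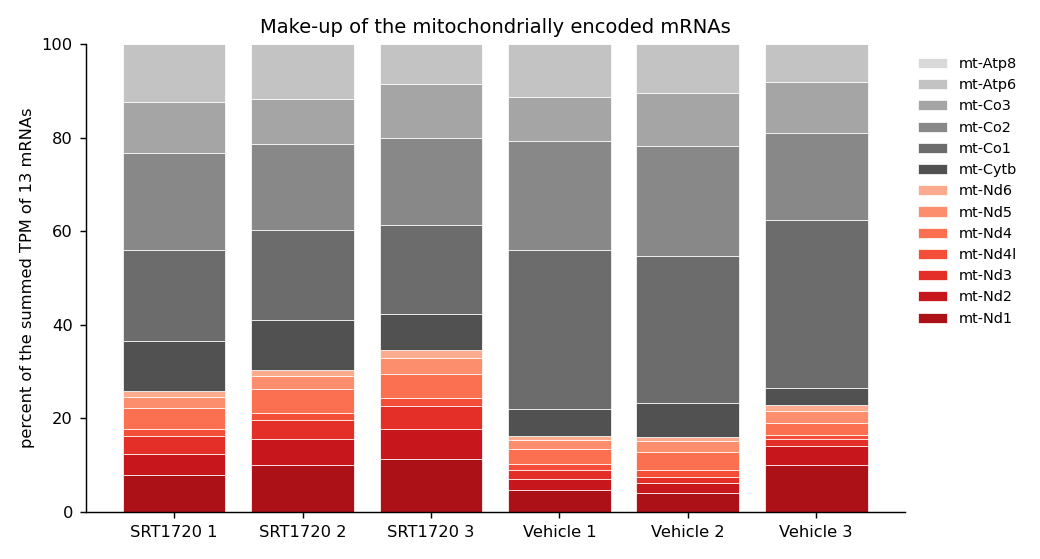
Percent of the summed TPM of 13 mitochondrially encoded mRNAs (y axis) in each library (x axis), with the 7 complex I messages in reds at the bottom and the other 6 in greys. The red part is 25.8% to 34.7% with SRT1720 and 16.1% to 22.8% with vehicle.

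The lists of nuclear genes had medians nearer to 0 than the members, with none of their genes called. Of all 9287 genes tested, 5093 had log2 fold changes above 0, against which the counts above 0 in each list can be read. Counts without overlap can be read against 12.1% of all genes tested higher, 7.75% lower and 19.9% in either direction. Of the 7 core subunits encoded in the nucleus, 0 passed limma's adjusted test, 6 had log2 fold changes above 0, and all 7 overlapped between groups. Their median was 0.047, with 0.24 without Vehicle 1 and −0.0090 without Vehicle 3. The iron-sulfur subunit gene Ndufs1 averaged 3.09 ± 0.52 against 2.27 ± 0.61 TPM (mean ± SD, n = 3 each), and Ndufs3, of the ubiquinone module, 6.21 ± 0.56 against 4.88 ± 1.03 TPM. Ndufv1, which binds NADH, was at 6.91 ± 0.23 against 6.68 ± 0.65 TPM, and its partner Ndufv2 at 16.2 ± 2.02 against 13.7 ± 2.70 TPM. Ndufs7 was at 6.69 ± 1.03 against 6.80 ± 1.26 TPM and Ndufs8 at 24.2 ± 1.0 against 24.1 ± 7.33 TPM. Ndufs8 and Ndufv1 flipped sign with median-of-ratios scaling.

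Of 27 supernumerary subunits tested, which surround the core, 16 lay above 0 and 11 below on the log2 scale, and their median was 0.11, turning to −0.033 without Vehicle 3. None passed the adjusted test, and 2 were higher and 1 lower without overlap. Ndufa6 was the lowest, at 31.0, 30.1 and 26.2 TPM with SRT1720 and 52.7, 53.6 and 41.5 TPM with vehicle. Ndufa5 was at 11.9 ± 1.74 against 7.96 ± 1.0 TPM, Ndufa8 at 36.9 ± 5.55 against 26.4 ± 8.07 TPM and Ndufa13 at 17.2, 16.2 and 13.4 against 21.7, 23.5 and 14.8 TPM. Ndufab1 and Ndufb2 stayed below the filter.

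Assembly factors build the complex from its modules. Of 14 tested, 11 lay above 0 and 3 below, the median being 0.13 on the log2 scale (0.016 to 0.22 over the alternatives), and 2 did not overlap, both higher. These were Ndufaf4, at 3.0 ± 0.19 against 1.97 ± 0.27 TPM, and Foxred1, at 1.17 ± 0.05 against 0.892 ± 0.07 TPM. Ndufaf8 was at 4.11 ± 0.95 against 3.04 ± 1.16 TPM, while Ndufaf6 averaged 1.23 ± 0.11 against 1.42 ± 0.56 TPM and Tmem70 5.72 ± 1.04 against 6.07 ± 0.95 TPM.

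Genes for the upkeep and transcription of mitochondrial DNA had a median log2 fold change of 0.14, with 9 of 11 above 0 and none called. This median was 0.053 with a pseudocount of 5 and 0.24 with voom. Polrmt, the mitochondrial RNA polymerase, was at 1.34 ± 0.08 against 1.26 ± 0.33 TPM, and Twnk, the helicase of mitochondrial DNA replication, at 3.55 ± 0.78 against 3.30 ± 0.31 TPM. Tfam, which packages mitochondrial DNA and starts its transcription, was at 6.08, 5.10 and 4.31 TPM with SRT1720 and at 3.62, 3.69 and 4.0 TPM with vehicle. The Tfam groups did not overlap, with SRT1720 3 and Vehicle 3 close together. Mterf1b did not overlap either, lower with SRT1720, and these were the 2 without overlap among the 11 genes of the list that were tested. Tefm, an elongation factor, was at 1.38 ± 0.27 against 0.855 ± 0.32 TPM, and Mterf1b, of the termination factor family, averaged 1.36 ± 0.20 against 1.64 ± 0.02 TPM and Mterf3 1.61 ± 0.57 against 1.71 ± 0.23 TPM.

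Genes for processing and stability of mitochondrial RNA had a median of 0.26, with 12 of 14 above 0. This median was 0.11 with a pseudocount of 5 and 0.35 with voom. The groups did not overlap in 4 higher and 1 lower, and none passed the adjusted test. Elac2, which cuts the 3′ ends of tRNAs out of the long transcripts, was at 2.42, 2.84 and 2.74 TPM with SRT1720 and at 1.65, 1.33 and 1.27 TPM with vehicle. Lrpprc, which stabilizes mitochondrial mRNAs, was at 4.36, 4.40 and 11.3 TPM with SRT1720 and at 2.33, 3.09 and 6.55 TPM with vehicle, highest in the third library of each group. Hsd17b10, a subunit of the enzyme that cuts the 5′ ends of tRNAs, was at 8.98 ± 0.83 against 11.5 ± 1.47 TPM, and the RNA-binding protein gene Grsf1 at 9.05 ± 1.41 against 9.82 ± 2.40 TPM.

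**Figure D5:**
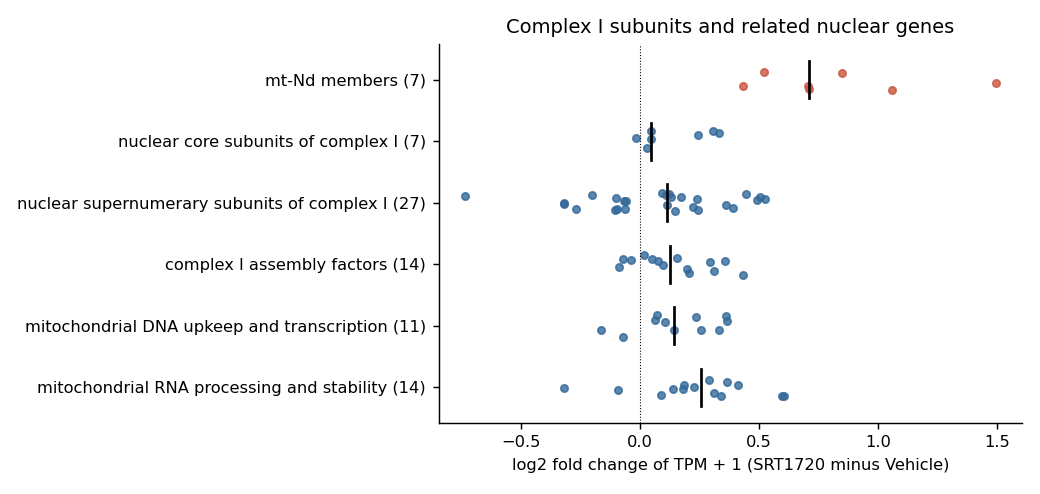
Log2 fold change of TPM + 1 (x axis, SRT1720 minus Vehicle) of each tested gene in 6 lists (y axis, number of genes in brackets), with black bars at the medians. The members have a median of 0.71, and the nuclear lists have medians of 0.047 to 0.26.

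The genes outside the mitochondrial genome whose pattern over the 6 libraries was most like that of mt-Nd3 were Gm28438, Nol12, Gm12355, Ddx54 and Foxred1, with Pearson's r of log2(TPM + 1) of 0.99 or more. For the mean of the other 6 members, at r of 0.99 after rounding or above, they were the processed pseudogenes Gm13394, Gm5559, Gm14760 and Gm12033, and Sart1. With 6 libraries and 9287 genes, such values are a description only. Gm13394 and Gm5559 had nearly equal reads in each library, such as 33677 and 33558 in SRT1720 1, and are not taken as independent measurements. Whether these pseudogenes share reads was not tested.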

How the data were processed

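The deposited table, made by the authors, gives TPM, a unit taken from its name, for 51912 Ensembl gene IDs in 6 libraries. STAR 2.6.0 and GRCm38 are named, with no role or order, per the submitters' processing notes. No counting program, annotation or rule for reads that match several places is named there. Columns summed to 161231 to 171577, which is below the fixed total of complete TPM columns, so values were read as relative levels. With lengths from GENCODE M21, which matched 51719 IDs, 95.6% of the values of genes with 1 annotated transcript were whole multiples, within 0.01, of the worth of 1 read. For every mt-Nd gene the annotated length gave whole reads. Other lengths were the smallest whole number that did so, which can understate their reads.

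Groups and replicate numbers came from the titles. limma 3.58.1 in R 4.3.3 (lmFit, eBayes with trend) was fitted on log2(TPM + 1), which understates changes of low genes, for genes averaging 1 TPM or more, and p-values were adjusted over all of these by Benjamini-Hochberg, with a threshold of 0.05. The fit and the read recovery were tested on simulated data. For the fit, the simulated spread was smaller than that between the real libraries, so it checks the code and not the power. Alternatives changed the pseudocount, filter, scaling, block, weights and libraries, or used voom on the recovered reads. Python 3.11.15 with pandas 2.3.3 and numpy 2.4.6 was used for the tables and for plots matplotlib 3.10.9.

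Members and gene lists were chosen with earlier results of these data known. Named genes were all members, listed copies, other mitochondrial mRNAs, rRNAs and nuclear core subunits, the 2 highest and 2 lowest of each other list with Polrmt, Tfam, Twnk and Lrpprc, and the 5 genes most like mt-Nd3 or the other members. Gm29155, listed as a copy, lies elsewhere on chromosome 1 and was near 0 in all libraries. The values of 1 named gene are not reported here. Coa1 and Prorp were not matched by symbol.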

Additional observations from a re-analysis of the deposited data

How the results depend on the processing

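In all 18 alternatives limma called 0 genes, with 498 to 2056 at an unadjusted p under 0.05. The 126 log2 fold changes of the 7 members were all above 0. The alternatives reuse the same libraries, and the members were chosen with this contrast in view, so that count is a description. A change of filter cannot alter a member's fold change. The numbers of the titles did not pair the libraries throughout. Deviations from the group means correlated at −0.20, −0.26 and 0.79 for the numbers 1, 2 and 3. SRT1720 1 with Vehicle 2 gave 0.72 and SRT1720 2 with Vehicle 1 gave 0.68. The labels do not say whether libraries that resemble each other share an organoid line, and no block on this resemblance was fitted. With the replicate number as a block, 0 genes were called and 1133 had an unadjusted p under 0.05. In a balanced design this block cannot alter a fold change, so the member median of 0.71 is the same by construction. That median was 1.0 without SRT1720 1 and Vehicle 2, 0.48 without SRT1720 3 and Vehicle 3, and 0.64 to 0.87 when single libraries were left out. The difference between the log2 fold changes of mt-Nd3 and Gm28438, 0.0013, ranged from −0.0034 to 0.0052 with single libraries left out.

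Some log2 fold changes changed sign, and the cause was not tested. With median-of-ratios scaling they were −0.0049 for Ndufs8 and −0.0022 for Ndufv1, and with mitochondrial genes and copies taken out of that scaling −0.0046 and −0.0019. Quantile normalization gave 0.025 for mt-Co2, −0.093 for mt-Co3, −0.044 for Gm28437, 0.035 for Gm28661 and −0.0080 for Ndufv1. Ndufs8 was at −0.072 with library weights and −0.17 without SRT1720 3 and Vehicle 3. Without SRT1720 1 and Vehicle 2, mt-Co2 was at 0.027 and Gm28661 at 0.026. Leaving out single libraries gave −0.00026 to 0.18 for mt-Co3, −1.38 to 0.39 for mt-Rnr1, −0.65 to 1.39 for mt-Rnr2 and −0.11 to 1.25 for mt-Tp. It gave −0.12 to 0.11 for Ndufs7, −0.19 to 0.24 for Ndufs8 and −0.0090 to 0.11 for Ndufv1. The ranges were −0.26 to 0.078 for Ndufaf6, −0.20 to 0.012 for Tmem70, −0.24 to 0.040 for Mterf3, −0.22 to 0.079 for Grsf1, −0.032 to 0.17 for Polrmt and −0.032 to 0.22 for Twnk.

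With a mean of at least 5 TPM, no gene of the list for mitochondrial DNA upkeep and transcription was left, so it has no median there. Shares within the 13 messages have no pseudocount or filter, and a scaling of whole libraries cannot alter them. With libraries left out, 56 of 56 differences of the members' shares were above 0. These differences share libraries and a common total, and the members were chosen with this contrast in view, so the count is a description. Over the alternatives the list medians ranged from −0.0090 to 0.24 for nuclear core subunits, −0.033 to 0.16 for supernumerary subunits, 0.016 to 0.22 for assembly factors, 0.053 to 0.24 for DNA upkeep and 0.11 to 0.35 for RNA processing.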

Other observations

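Of the 22 mitochondrial tRNA genes in the table, 21 were at 0 in all 6 libraries. The exception was mt-Tp, a minus-strand gene beside the control region, at 125, 187 and 392 TPM with SRT1720 (replicates 1, 2 and 3) and at 123, 62.4 and 413 TPM with vehicle. Its highest libraries, SRT1720 3 and Vehicle 3, were also those with the highest rRNA. There mt-Rnr1 was at 284 and 837 TPM and mt-Rnr2 at 417 and 725 TPM, against 70.0 to 132 and 44.3 to 95.1 TPM in the other 4 libraries.

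In the copied stretch of chromosome 1, Gm10925 had 68086 to 125378 reads, while mt-Atp6, identical to it over 678 bases, had 36866 to 65222. That pair differed far more than mt-Nd3 and Gm28438 did. The gene mt-Atp6 overlaps mt-Atp8, and whether this bears on the difference was not tested. Gm28437, identical to mt-Co3 over 783 bases, was at 1567 ± 229 against 1426 ± 124 TPM, and Gm29216, a copy of the end of mt-Co1, at 2093 ± 124 against 3353 ± 427 TPM (mean ± SD, n = 3 each).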
